A study of Homo sapiens and Mus musculus with 14 samples.

Results

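Open chromatin was described at 9 genes of antigen processing that lie outside the HLA region: B2M, ERAP1, ERAP2, LNPEP, CALR, CANX, PDIA3, NLRC5 and CIITA. A peak was taken when it overlapped the hg38 gene body of a member or the 20 kb on either side. This gave 21 of 39537 peaks for SMARCAL1 knockout clone 1, 17 of 34572 for SMARCAL1 knockout clone 2 and 23 of 64806 for control cells. The windows of ERAP1, ERAP2 and LNPEP overlap on chromosome 5, and each of their peaks was counted once.

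The study used ATAC-seq, in which a transposase cuts accessible DNA, to compare cells with and without SMARCAL1, an ATP-driven enzyme that anneals single-stranded DNA and rebuilds stalled forks. All cells used here are MDA-MB-436, an established human breast adenocarcinoma line, in the same serum-containing medium. The groups are SMARCAL1 knockout clone 1 with 3 libraries of batch 1, SMARCAL1 knockout clone 2 with 2 libraries of batch 2, and control with 3 libraries of batch 1. The series holds 14 samples in all, and the 6 of the mouse line B16F10 were not analysed here. Each knockout group is a single clone, and the labels do not say whether the control cells were cloned. For clone 2, clone and batch cannot be told apart. The authors deposited 1 merged peak list per group, so replicates could not be compared and p-values are not given. Both clones are set against the same control list. These peak lists cannot check the knockout itself.

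Cells show fragments of their own proteins on MHC class I molecules, which consist of a heavy chain and the light chain B2M. Newly made heavy chains are folded in the endoplasmic reticulum by the lectin chaperones calnexin (CANX) and calreticulin (CALR) together with the disulfide isomerase PDIA3. The aminopeptidases ERAP1 and ERAP2 trim peptides to a length that fits the groove, and LNPEP trims peptides in endosomes. NLRC5 and CIITA are transactivators that act on promoters of class I and class II genes, and CIITA is expressed mainly in professional antigen-presenting cells or after interferon gamma.

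Of 8 mesenchymal and basal markers, 5 had a start site peak in clone 1, 3 in clone 2 and 5 in control. VIM, CDH2 and CAV1, genes of mesenchymal cells, had it in all 3 lists, ZEB1 and AXL in clone 1 and control, and the basal genes KRT5, KRT14 and TP63 in none. Of 7 luminal markers, 2 had a peak in clone 1, 3 in clone 2 and 3 in control, with FOXA1 in all 3 lists and GATA3 in clone 2 and control. Of 4 fibroblast and endothelial markers, PDGFRA had a peak in all 3 lists and the others in none. Of 8 leukocyte markers, 1 had such a peak in clone 1, 2 in clone 2 and 2 in control. CD14 and SPI1 were the ones with a peak, and PTPRC, MS4A1 and CD79A had none in any list. For markers and other genes with no annotated start, both gene ends were used. Each peak carries the score of the authors' peak caller, which is read as −log10 p. Scores depend on the depth of the libraries, which is not known. They were used to rank peaks within a list, except for a minimum of 7 when settings were varied. The median score was 6.07 in clone 1, 11 in clone 2 and 6.26 in control, and the lowest was 5, 5.01 and 5.

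At the start sites, 5 of the 9 genes were accessible in all 3 lists: B2M, ERAP1, LNPEP, CANX and PDIA3. The CALR start site had a peak in control and in neither clone. The second start site of ERAP2 had a weak peak in clone 1 and none in clone 2 or control. NLRC5 and CIITA had no peak at their leftmost annotated base in any list. A start site peak lies within 1000 bp of an annotated start. Starts came from RefSeq for 6 of the 9 members, and for PDIA3, NLRC5 and CIITA the leftmost base of the gene was used. On this count 6 members had a start site peak in clone 1, 5 in clone 2 and 6 in control. Among 15843 protein-coding genes with an annotated start, 53.8% had such a peak in clone 1, 47.5% in clone 2 and 64.1% in control.

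**Figure D1:**
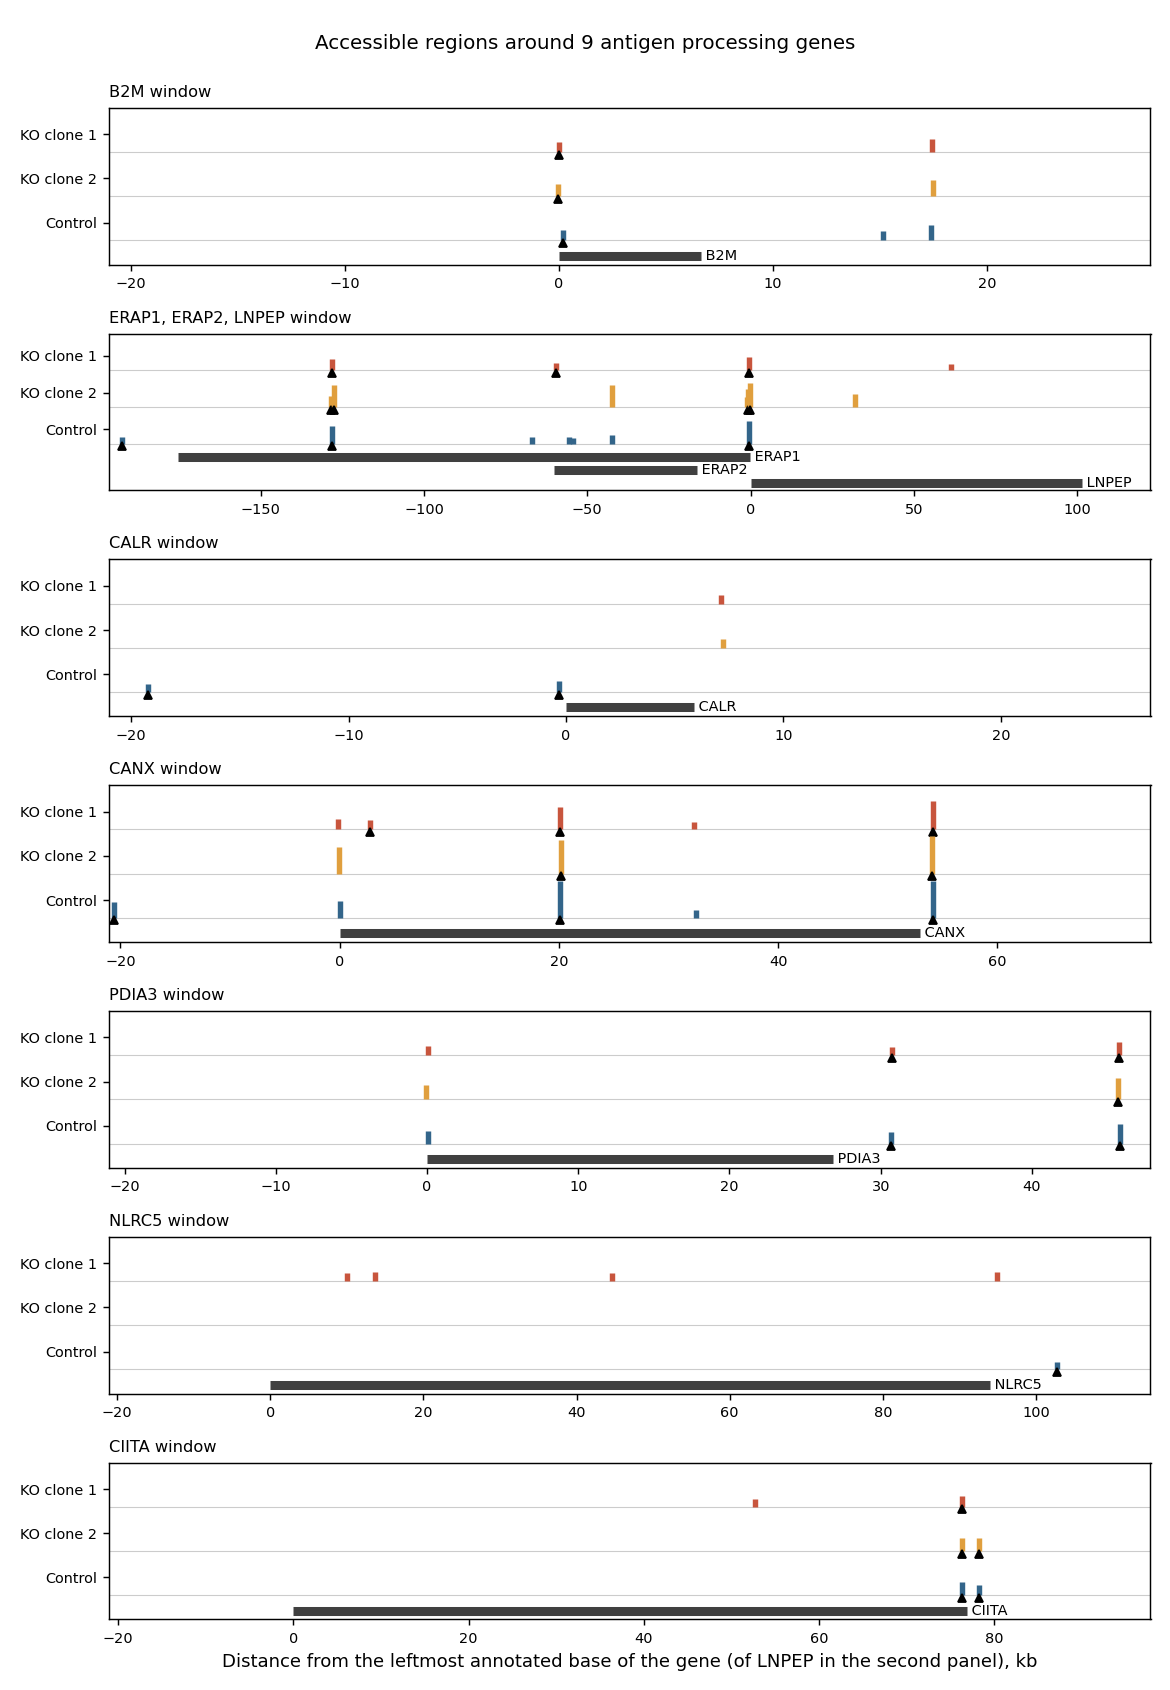
Peaks of knockout clone 1, knockout clone 2 and control in the windows of the 9 genes, by distance from the leftmost annotated base in kb (from that of LNPEP in the second panel). Bar height is the score, drawn up to 25, triangles mark peaks within 1000 bp of an annotated start site and dark bars are gene bodies; the CALR start has a control peak only, and the NLRC5 body has peaks in clone 1 only.

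The 250 bases before the CALR start are shown because a control peak covered 100% of them and no peak of clone 1 or clone 2 covered any. The sequence is from RefSeq (GRCh38.p14, chr19:12938359-12938608, plus strand). Capitals mark every CCAAT box on either strand and the fixed letters of the ER stress element, CCAAT followed after any 9 bases by CCACG, which here reads on the reverse strand and contains a CCAAT box itself.
CALR: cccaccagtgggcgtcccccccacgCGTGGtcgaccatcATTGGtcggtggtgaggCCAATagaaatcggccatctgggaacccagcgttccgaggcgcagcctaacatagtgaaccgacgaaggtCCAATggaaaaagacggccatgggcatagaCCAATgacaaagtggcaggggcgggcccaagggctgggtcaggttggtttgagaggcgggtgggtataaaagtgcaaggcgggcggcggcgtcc

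The ER stress element is the binding site through which ATF6 and NF-Y raise ER chaperone genes. It was searched on both strands of all 35116 promoter windows of the RefSeq table, 250 bases before to 50 after a start, and 27 of them (0.0769%) held it. A gene with several close starts is counted more than once. Besides the members with a promoter sequence, only the ER chaperone genes HSPA5 and HSP90B1, picked by name, were looked at. Peaks at the other windows with the element were not examined. The element was found at CALR, CANX, HSPA5 and HSP90B1, which has 2, the first of them shown. The 30 bases around each are shown to set the CALR element, which no clone peak covered, beside elements of the same kind that lay within peaks of all 3 lists. Capitals mark the fixed letters.
CALR: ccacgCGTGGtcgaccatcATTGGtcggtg
CANX: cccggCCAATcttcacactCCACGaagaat
HSPA5: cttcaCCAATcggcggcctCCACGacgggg
HSP90B1: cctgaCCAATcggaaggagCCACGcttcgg
These sites are at chr19:12938379-12938408 (plus strand), chr5:179698773-179698802 (plus), chr9:125241385-125241414 (minus) and chr12:103930211-103930240 (plus). Each of the CANX, HSPA5 and HSP90B1 sites was covered to 100% by a clone 1, a clone 2 and a control peak. Control start site scores were 24.2 at CANX, 16.2 at HSPA5 and 17.8 at HSP90B1, against 7.07 at CALR. Of all control peaks scoring 13.1 to 104, 99.1% were found in clone 1 and 98.8% in clone 2. For scores of 6.84 to 7.83 these shares were 49.5% and 53.9%. The sites thus differ in peak strength, and a part of the element in the CALR difference was not tested. The CCAAT box alone is common and was found in 34.6% of all promoter windows. A match is a description of the letters and does not show that a factor binds there.

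Among the members that fold class I heavy chains, CANX and PDIA3 had a start site peak in control and both clones, and CALR in control only. The CALR gene spans chr19:12938609-12944489. Its control peak (chr19:12937922-12938621) had a score of 7.07, higher than 62.5% of the control list. The score has the digits of a mean over 3 merged calls. The peak reached from 687 bp before to 12 bp after the start. Peaks of this strength were often missing in the clones: of 2093 control start site peaks with a score within 10% of 7.07, 63.5% were found in clone 1, 51.2% in clone 2, and 24.4% in neither. Over all genes with a control start site peak, 19.1% had none in clone 1, 26.8% had none in clone 2 and 13.8% had none in either.

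The CALR window held 1 peak in clone 1, 1 in clone 2 and 2 in control, and no peak of either clone met a control peak. Besides the CALR peak, control had a peak at the start of SYCE2, a gene of the meiotic synaptonemal complex, with a score of 5.51.

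CANX (chr5:179678656-179731641) had the strongest start site peak of the 9 genes in each of the 3 lists. It scored 14.9 in clone 1, 22.4 in clone 2 and 24.2 in control, at the 98, 94 and 98.7 percentiles of these lists. The clone 1 peak was 1294 bp wide, the clone 2 peak 565 bp and the control peak 1272 bp. Of the 4 annotated starts, the clone 2 peak covered all but the first (179698427), from which it began 114 bp downstream. The CANX window held 5 peaks in clone 1, 3 in clone 2 and 5 in control. Clone 1 overlapped all 5 control peaks and clone 2 overlapped 4, in part with peaks past the edge of the window. The control peak missing in clone 2 lay inside the gene (chr5:179711047-179711267) and had a score of 5.09. Clone 1 had a further peak of 6.34 close to the start of CBY3 that met no control peak.

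At PDIA3 (chr15:43746438-43773278) the peak at the leftmost base scored 5.90 in clone 1, 9.66 in clone 2 and 8.02 in control. It was 1297 bp wide in clone 1, 162 bp in clone 2 and 1260 bp in control, and the clone 2 peak ended 10 bp before the gene. The window held 3, 2 and 3 peaks in clone 1, clone 2 and control. The control peak without a counterpart in clone 2 scored 7.82 and lay across the starts of the neighbours ELL3 and SERF2. Of 1882 control start site peaks within 10% of that score, 65.1% were found in clone 2.

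B2M (chr15:44711517-44718145), the class I light chain, had a start site peak in all 3 lists. It scored 6.87 in clone 1, 8.06 in clone 2 and 7.14 in control, at the 65.9, 13.8 and 63.3 percentiles. The peak extended 246 bp past the start in clone 1, 52 bp in clone 2 and 732 bp in control. Upstream it reached 261, 174 and 323 bp, into PATL2, a neighbour on the opposite strand with 126 bp between its first base and that of B2M. The peak covered the PATL2 start in all 3 lists. These 126 bases (GRCh38.p14, chr15:44711391-44711516, plus strand) are shown because peaks of all 3 lists covered 100% of them. Capitals mark the CCAAT box, here on the reverse strand.
B2M: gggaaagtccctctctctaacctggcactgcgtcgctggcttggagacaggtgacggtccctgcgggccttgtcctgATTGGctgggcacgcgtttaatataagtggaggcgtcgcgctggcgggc

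A second peak of the B2M window, to the right of the gene and outside any protein-coding gene, was in all 3 lists, with scores of 8.31 in clone 1, 10.7 in clone 2 and 10.1 in control. The remaining control peak of the window (chr15:44726405-44726887) scored 6.26 and was in neither clone. Of 17808 control peaks within 10% of that score, 27% were found in clone 1 and 27.5% in clone 2.

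The genes of the trimming enzymes ERAP1, ERAP2 and LNPEP lie together on chromosome 5. The annotated ERAP1 body (chr5:96760813-96935854) contains the whole of ERAP2, so peaks inside ERAP2 also lie inside ERAP1. Their joint window held 4 peaks in clone 1, 7 in clone 2 and 7 in control. The higher number in clone 2 than in clone 1 came from split peaks: 5 of the 7 clone 2 peaks lay over only 2 control peaks. At the first ERAP1 start (96807945, minus strand) clone 1 had a peak of 1362 bp with a score of 9.00 and control a peak of 1375 bp with a score of 14.6. Clone 2 had a pair of peaks there, of 283 bp with a score of 18.0 and of 235 bp with a score of 8.73, on either side of the start, which neither covered. The second ERAP1 start (96814145) had no peak in any list.

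LNPEP (chr5:96936080-97037513), an endosomal aminopeptidase, shares its start region with the upstream end of the ERAP1 gene body, which is on the minus strand. A peak of 1830 bp with a score of 10.8 in clone 1 and a peak of 1830 bp with a score of 18.5 in control spanned it. Clone 2 had 3 peaks over the same stretch, and the one at the LNPEP start scored 19.5. Within LNPEP, clone 1 had a peak of 149 bp with a score of 5.27 and clone 2 had a peak of 129 bp with a score of 10.3. Neither met a control peak, and they did not overlap each other. The second LNPEP start (96958433) had no peak in any list.

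ERAP2 (chr5:96875984-96919716) had no start site peak in clone 2 or control. The clone 1 peak at its second start (chr5:96876419-96876653) scored 5.76, and no clone 2 or control peak overlapped it. Among genes with no control start site peak, 5.55% had one in clone 1, 1.51% had one in clone 2 and 0.545% had one in both. Inside the gene, a peak at chr5:96893388-96893757 in control with a score of 7.58 was met in clone 2 by a peak with a score of 18.1, at the 87.4 percentile of that list. Clone 1 had no peak there. Of 8847 control peaks within 10% of 7.58, 53.2% were found in clone 1 and 57.6% in clone 2. Of the other control peaks in the joint window, 4 were in neither clone, with scores of 5.08 to 5.81. Of all control peaks within 10% of each of these scores, 12.8 to 21.6% were found in clone 1 and 10.6 to 20.1% in clone 2.

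**Figure D2:**
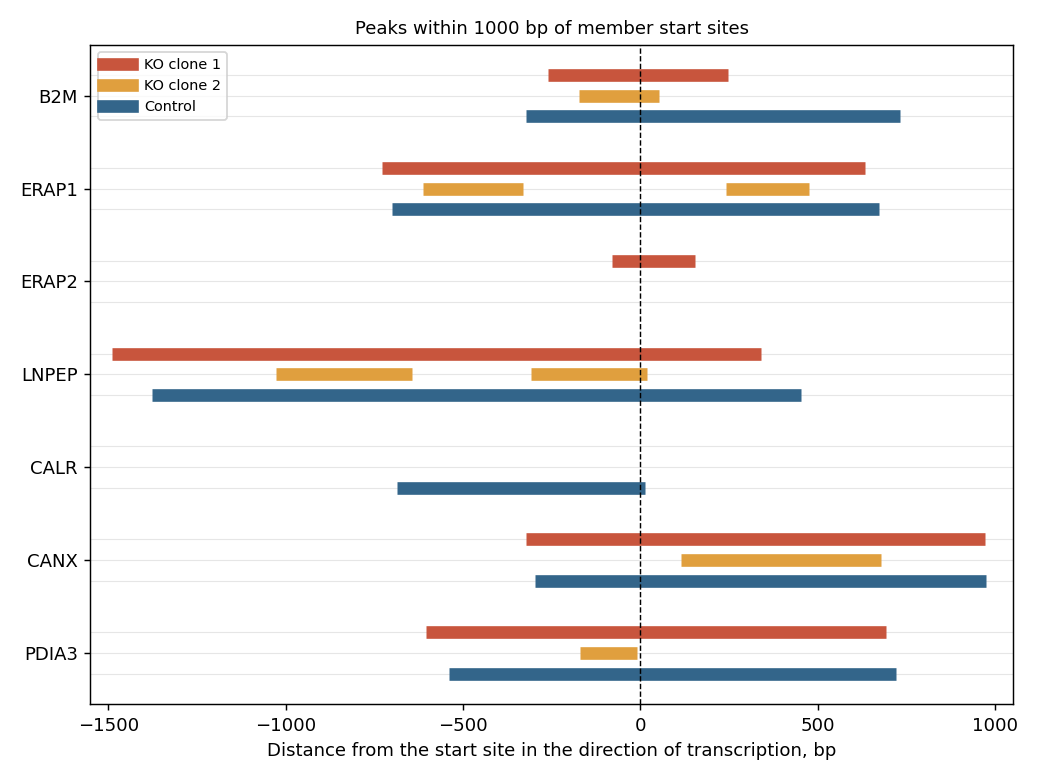
Extent of peaks within 1000 bp of the start of 7 genes, in bp from the start in the direction of transcription (for PDIA3 from its leftmost base; the first start of ERAP1, LNPEP and CANX and the second of ERAP2). Rows are knockout clone 1, knockout clone 2 and control; clone 2 peaks are narrower throughout, the clone 2 peaks at ERAP1 flank the start, and CALR has a control peak only.

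Interferon-stimulated response elements are the sites of IRF factors. Their core, a pair of GAAA tetramers with any 2 bases between them, was found on either strand in 3.57% of all promoter windows. Of the members, B2M, ERAP1, ERAP2, LNPEP, CALR and CANX were searched. The core was found at B2M, ERAP1 and the second start of ERAP2, and the 30 bases around each are shown because the lists whose peaks covered them differed. Capitals mark the fixed letters of the core; B2M holds a pair of overlapping cores, and the ERAP1 core reads on the reverse strand.
B2M: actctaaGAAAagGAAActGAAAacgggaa
ERAP1: cgggctccacTTTCacTTTCggtcctgggg
ERAP2: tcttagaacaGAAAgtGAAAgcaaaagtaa
The sites are at chr15:44711366-44711395 (plus strand), chr5:96807924-96807953 (minus) and chr5:96876460-96876489 (plus). The B2M site lay within a peak of clone 1, clone 2 and control. The ERAP1 site lay within a clone 1 and a control peak and between the clone 2 peaks. The ERAP2 site was covered by the clone 1 peak alone. The gamma-interferon site TTCNNNGAA was found in 7.66% of all windows and, of the windows of the 6 members searched, in that of the second LNPEP start. AP-1 (TGANTCA) and the cAMP response element (TGACGTCA) were in none of the windows of these 6 members, against 7.71% and 1.85% of all.

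The NLRC5 window (gene chr16:56989557-57083520) held 4 peaks in clone 1, none in clone 2 and 1 in control. The clone 1 peaks scored 5.27, 5.64 and 5.28 inside the gene and 5.66 next to its right end, and the control peak scored 5.19 and lay at the start of the neighbour CPNE2. No peak of the window was shared between lists. From the leftmost base of NLRC5 the nearest peak was 9.92 kb away in clone 1, 138 kb in clone 2 and 56.4 kb in control. The window had 2.99 peaks per 100 kb in clone 1, 0 in clone 2 and 0.746 in control. Of all protein-coding gene windows, 70.6% had a lower density in clone 1 and 15.1% in control, and 33.5% held no clone 2 peak. None of the 5 scores had the digits of a mean over merged calls, which does not show that they were single calls. Each was below the median of its list.

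CIITA (chr16:10866206-10943021) had no peak within 50 kb of its leftmost base in any list: the nearest was 52.6 kb away in clone 1, 76.1 kb in clone 2 and 75.9 kb in control. The window held 2 peaks in each list. A peak with a score of 7.06 in clone 1, 8.75 in clone 2 and 8.68 in control overlapped the CIITA body but lay on the start of DEXI, a gene on the opposite strand. A peak at the start of CLEC16A scored 8.41 in clone 2 and 6.81 in control and was not in clone 1. Within the gene, clone 1 alone had a peak of 5.04, at the 2.17 percentile of its list. The leukocyte markers CD14 and SPI1 had a peak at a start or gene end in clone 2 and control, and CD14 also in clone 1, while PTPRC and MS4A1 had none.

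Over the 9 windows, 10 of 23 control peaks had no overlapping clone 1 peak, which is 43.5% (exact 95% interval 23.2 to 65.5), against 57.9% of all control peaks. For clone 2 the count was also 10 of 23 (43.5%, 23.2 to 65.5), against 57.1%. The intervals, which cover counting error only, include the values of the whole list. Control peaks missing in both clones were 8 of 23 (34.8%, 16.4 to 57.3), against 46.7% of all. The comparisons share the control list. In the other direction, 9 of 21 clone 1 peaks met no control peak (42.9%, 21.8 to 66), against 30.7% of all clone 1 peaks. In clone 2 it was 2 of 17 (11.8%, 1.46 to 36.4), against 11.1%.

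Most of the missing peaks had low control scores. Among the 15 control peaks above the median score, 12 were found in clone 1 and 13 in clone 2, and among the 8 at or below it, 1 and 0 were found. Over the whole list the shares missing above the median were 32% in clone 1 and 29% in clone 2, and at or below it 83.7% and 85.2%. The 3 control peaks above the median that clone 1 lacked were those of CALR, the ERAP2 body and CLEC16A. The 2 that clone 2 lacked were those of CALR and of ELL3 and SERF2.

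**Figure D3:**
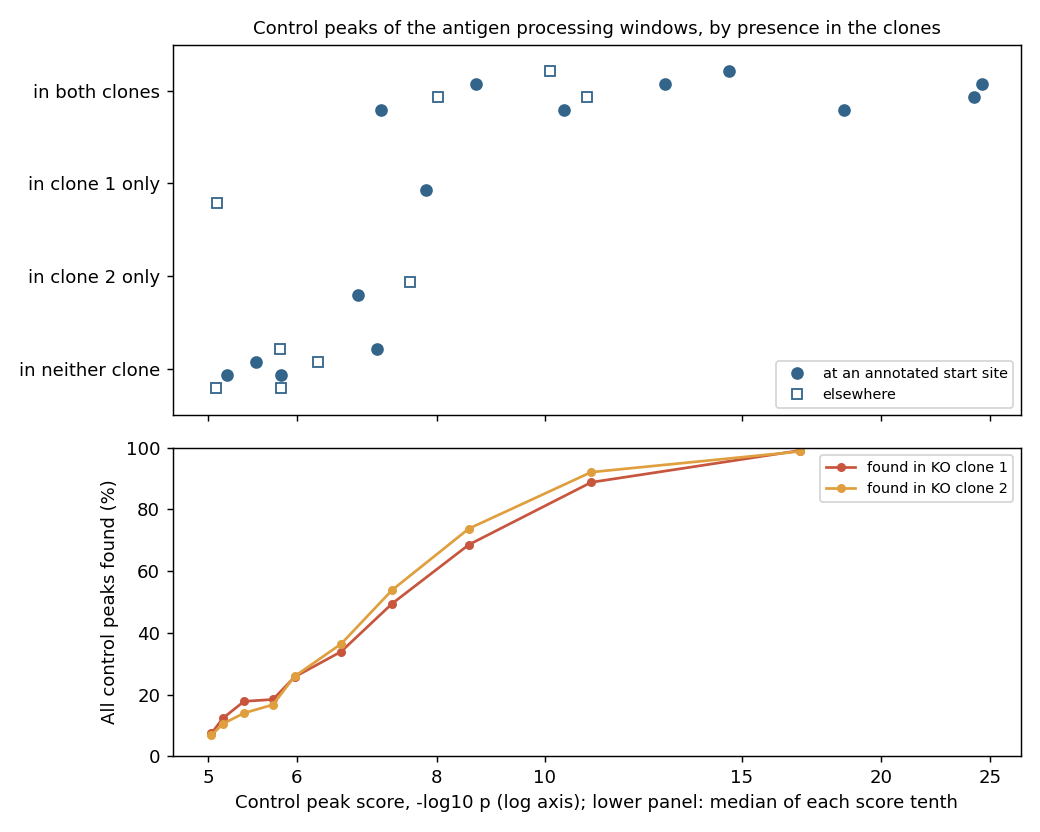
Upper panel, the 23 control peaks of the 9 windows by control score (−log10 p, log axis) and by presence in the clones; filled circles are at annotated start sites. Lower panel, the share of all 64806 control peaks found in knockout clone 1 and knockout clone 2 in each of 10 equal classes of the control score; all 9 member peaks with a score above 8.02 were in both clones.

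Kept peaks differed in extent. Each of the 13 control peaks found in clone 1 was met by a single clone 1 peak, which covered a median of 92.7% of it (range 40.3 to 99.7). Of the 13 found in clone 2, 3 were met by several peaks, and the covered share had a median of 34.8% (12.9 to 56.5). The median width in the windows was 508 bp in clone 1, 235 bp in clone 2 and 722 bp in control, against 453, 200 and 399 bp over the whole lists. Peaks of clone 2 were narrow over the whole list, and the part of batch and settings in this was not tested. Peaks at annotated start sites made up 10 of 21 clone 1, 10 of 17 clone 2 and 14 of 23 control peaks of the windows, which were built around genes. The peak at the leftmost base of PDIA3 is not among these. Over the whole lists, start site peaks were 24.3% of clone 1, 27.9% of clone 2 and 18.7% of control peaks.

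Other genes of antigen presentation were taken from 5 lists with 44 genes. A start site peak was present at 40 of them in clone 1, 33 in clone 2 and 39 in control. Of the 39 genes with a control peak, 1 had none in clone 1 (2.56%, 0.0649 to 13.5) and 6 had none in clone 2 (15.4%, 5.86 to 30.5), against the 19.1% and 26.8% of all genes given above. No gene of the lists lost its peak in both clones, against 13.8% of all genes with a control start site peak. None gained a peak in both, against 0.545% of all genes with no control start site peak. The names below were therefore picked after their values were seen. For 6 of the 44 genes, whose start was not in the table, either end of the gene was used; IRF2, CTSS and CTSB are among these.

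The partners of NLRC5 and CIITA on the promoters of MHC genes, among them RFX5, RFXAP, RFXANK and the NF-Y subunits, had a peak at 8 of 8 genes in clone 1, 7 in clone 2 and 8 in control. The gene without a clone 2 peak was ATF1, a CREB-family factor, with a score of 5.42 in clone 1 and 5.25 in control. Of 9 genes of the interferon input, 9 had a peak in clone 1, 7 in clone 2 and 9 in control. IRF1, an interferon-induced transcription factor, scored 6.98 in clone 1, 8.80 in clone 2 and 10.5 in control. The interferon gamma receptor gene IFNGR2 and the factor IRF2 had no clone 2 peak. Their control scores were 5.86 and 9.34.

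Of 9 genes of peptide generation, 9 had a peak in clone 1, 7 in clone 2 and 8 in control. TPP2, a cytosolic peptidase, scored 16.8 in clone 1, 28.8 in clone 2 and 24.6 in control. PSME3, a proteasome activator subunit, had a peak of 5.05 in clone 1 alone, and the aminopeptidase gene BLMH lacked a clone 2 peak. Of 10 genes of ER folding and export, 8 had a peak in clone 1, 9 in clone 2 and 9 in control. UGGT1, the enzyme that returns misfolded glycoproteins to CANX and CALR, had a score of 9.15 in clone 2 and 8.13 in control and no clone 1 peak. SEL1L, of ER-associated degradation, had the highest scores of the 44 genes, with 23.3 in clone 1, 45.3 in clone 2 and 42.3 in control. TAPBPL, a tapasin-like peptide editor, had no peak in any list.

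Of the 5 lists, class II processing had the fewest accessible starts, at 6 of 8 genes in clone 1, 3 in clone 2 and 5 in control. Of all genes with an annotated start, 53.8% had such a peak in clone 1, 47.5% in clone 2 and 64.1% in control. With 8 genes, the list cannot be told apart from these shares. For 3 of the 8 genes either gene end was used. CD74, the invariant chain, and IFI30, a lysosomal thiol reductase, had no start site peak in any list. CTSS and CTSB, cathepsins of the endosomal pathway, lacked a clone 2 peak and had control scores of 7.11 and 6.67. CTSD, another cathepsin, had a peak of 8.26 in clone 1 alone.

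**Figure D4:**
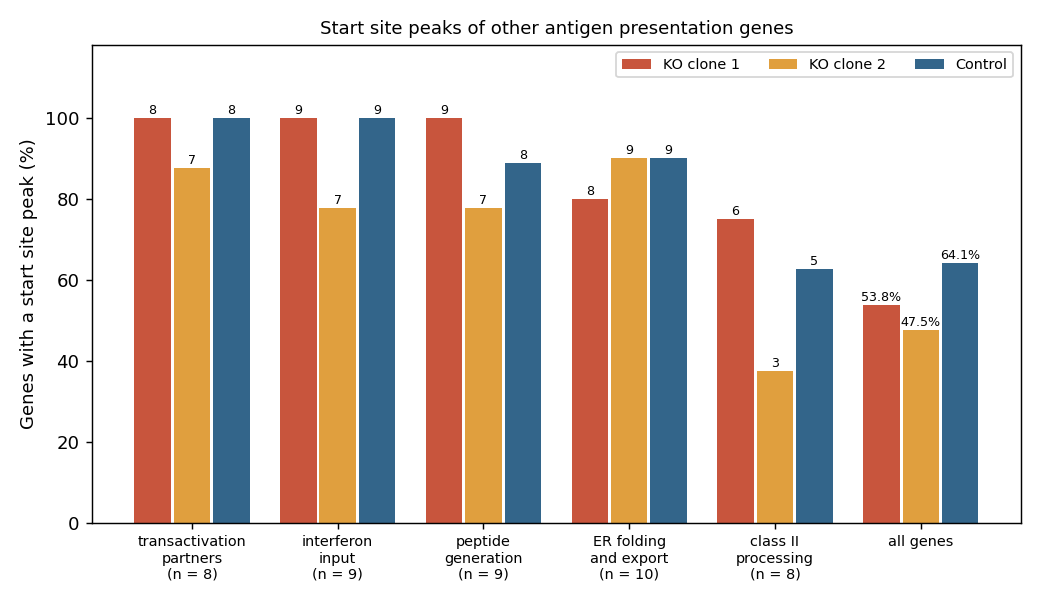
Share of genes with a start site peak in knockout clone 1, knockout clone 2 and control for 5 lists of antigen presentation genes and for all 15843 protein-coding genes with an annotated start. Numbers above the bars are genes (shares for all genes); class II processing has the lowest counts, 6, 3 and 5 of 8.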

How the data were processed

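Per the labels' descriptions, the authors merged the replicates of each group into 1 peak list. The submitters' processing notes name HISAT2, MACS2, ChIPseeker and the build hg38, with no version or setting. The deposited score is read as −log10 p: 4066 control, 3774 clone 1 and 2620 clone 2 peaks lay within 0.002 of steps of a Poisson tail with a constant background, among the 40 most frequent scores. Scores with over 5 decimals in batch 1, or over 6 significant digits in batch 2, were taken as means over merged calls. Other scores can be single calls or means that the digits do not reveal. Coordinates are printed counted from 1. A peak was found in another list at an overlap of at least 1 bp. Genes, start sites and promoter sequences are from RefSeq (GRCh38.p14). Shares carry exact Clopper-Pearson 95% intervals, which cover counting error only. Overlap code was tested on simulated data. Python 3.11.15, pandas 2.3.3 and scipy 1.17.1 were used. The members and lists were chosen with earlier results of these data known. All 9 members are named, with their start site peaks and control peaks above the median score missing in a clone. The rule also takes peaks of both clones missing in control, and that item is not reported here.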

Additional observations from a re-analysis of the deposited data

How the results depend on the processing

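No paired analysis was possible because each group is 1 merged list, and for the same reason no replicate could be left out. Of 49 values under other settings, 40 stayed within the interval of the value given above, or within 1.5 times of a count. When at least 50% of a control peak had to be covered, 8.7% of the control peaks of the windows were found in clone 2, where peaks are narrow. In a further setting only the peaks counted had to score at least 7, and the list they were set against was not cut. Of the 14 control peaks of the windows that strong, 85.7% were found in clone 1 and 85.7% in clone 2. CALR was the 1 of 14 (7.14%) found in neither. Of the 7 clone 1 peaks that strong, 0% met no control peak. At that score 4 members and 26 of the 44 other genes had a start site peak in clone 1, 6 and 33 in clone 2, and 7 and 33 in control. Without the minimum these counts stood at 8 and 40, 6 and 33, and 7 and 39. They use either end of PDIA3, NLRC5 and CIITA. A score of 7 lies above the median of the clone 1 and control lists and below that of clone 2, so the minimum is not equally strict. With lists of equal length, 13 of 16 control peaks of the windows (81.2%) were found in clone 2 and 2 of 16 (12.5%) in neither clone. Both settings drop weak control peaks, which were missing more often over the whole list too. There, 32% of peaks above the median score were missing in clone 1 and 29% in clone 2. At or below the median these shares were 83.7% and 85.2%. Read depth is not known.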

Other observations

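The strongest peak of the 9 windows belonged to a neighbour. MAML1, a coactivator of Notch signalling next to CANX, had start site scores of 18.9 in clone 1, 27.1 in clone 2 and 24.6 in control. SERF2, next to PDIA3, had a start site peak in all 3 lists, with scores of 8.71 in clone 1, 14 in clone 2 and 12.8 in control. CAST, which encodes the calpain inhibitor calpastatin and borders ERAP1, had a control peak of 5.81 at a start site within the ERAP1 window that neither clone had. Such a loss was common: of 2539 control start site peaks close to that score, by the margin used for CALR, 52.6% were found in neither clone.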
